A study of Mus musculus with 4 samples.

Results

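The genes described here encode the respiratory chain and ATP synthase of mitochondria, measured in the colon epithelium of mice with dextran sodium sulphate (DSS) colitis. They were chosen by symbol: Cyc1, Cycs, Sdha to Sdhd, and every gene whose symbol starts with Ndufa, Ndufb, Ndufc, Ndufs, Ndufv, Uqcr, Cox4 to Cox8 or Atp5. Of the 18193 genes that a probe set of the arrays names alone, 92 met this rule, and the brightest of their 184 probe sets stood for each. Of the 92 genes, 86 lay above a filter on dim probe sets (log2 intensity 2.81, the 40th percentile of all probe set means) and 6 did not: Ndufb4, Ndufa4l2, Cox4i2, Cox6a2, Cox7b2 and Cox8c. For Ndufb4 this is the single probe set that names it alone, since probe sets shared with its copies were not used.

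A series of protein complexes hands electrons from nutrients to oxygen. Complex I takes them from NADH and complex II from succinate; both pass them to ubiquinone, complex III passes them on to the small carrier cytochrome c, and complex IV hands them to oxygen. Complexes I, III and IV pump protons across the inner mitochondrial membrane, and ATP synthase lets them back to make ATP. Colonocytes draw much of their energy from oxidising the butyrate that gut bacteria make, and so depend on this chain. STAT3, a transcription factor activated by cytokines, has itself been described in mitochondria, and the complex I subunit Ndufa13, also known as GRIM-19, was described as a protein that binds STAT3.

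RNA came from 4 mice, 1 array each, all given 2.5% DSS for 5 days, a polymer that injures the colon epithelium. All carried floxed Stat3 alleles (Stat3flfl): 2 also carried VilCre, a Cre recombinase transgene under control of villin regulatory sequence, which is active in intestinal epithelial cells (VilCre+, here Cre-positive), and 2 lacked it (VilCre-, Cre-negative). The labels used here give no strain, age or sex and do not say how the epithelium was separated, and untreated mice were not analysed here. By its brightest probe set Stat3 measured log2 10.46 and 10.50 in the Cre-negative arrays and 9.28 and 8.16 in the Cre-positive arrays, a difference of -1.75 (SE 0.43, limma adjusted p = 0.332). A second bright Stat3 probe set differed by -1.57 and a dim one by 1.29 the other way; where they lie relative to the floxed exons is not given in the labels.

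The epithelial markers Epcam, Cdh1, Krt8, Krt18, Krt20 and Vil1 were all measured well above the filter on every array. Of markers of other cells, all 3 endothelial, 4 of 6 muscle and 2 of 4 fibroblast genes lay at the bottom of the scale on every array. Cre-positive array 1 stood apart from the rest. Its 2 neutrophil markers, S100a8 and S100a9, summed to log2 10.59, against 5.67 to 6.69 on the other 3 arrays, its epithelial markers to 17.02 against 16.64 to 16.69, and its 3-prime to 5-prime ratio of Gapdh was 0.992 against 0.782 to 0.886. The same ratio of Actb, 1.32, lay within the range of the other 3 arrays (1.27 to 1.42). T and NK cell markers summed to 9.0 and 9.25 in the Cre-positive and 8.24 and 8.51 in the Cre-negative arrays, and macrophage markers to 7.56 and 7.82 against 7.24 on both. Medians of the complexes and gene lists are therefore also given for the 2 Cre-positive arrays apart. In such bulk RNA, fewer cells of a type and less RNA per cell cannot be told apart. The part of these markers and of RNA quality in the results was not tested.

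Between Cre-positive and Cre-negative mice the messengers of this machinery differed little, and none of the differences passed the test. Over all 12659 genes tested limma called 0 genes at an adjusted p under 0.05 (0% of genes), so 0 of the 86. At an unadjusted p under 0.05, 0 of the 86 were higher and 0 lower, against 2.54% of all genes higher and 8.51% lower. Of the 5611 genes above the 80th percentile of intensity, 175 were higher and 125 lower at that p. The smallest limma adjusted p of any of the 86 was 0.483, that of Cox8b, which lay at the bottom of the scale. The next was 0.499 (Ndufaf2). A design of 2 arrays against 2 allows an exact two-sided permutation p of 0.333 at the smallest. The median size of the difference, whatever its direction, was 0.10 on the log2 scale, against 0.16 over all genes tested and 0.17 over the 5611 genes above the 80th percentile of intensity, where 80 of the 86 lay. The 95% interval of the difference lay within a 2-fold change in either direction for 81 of the 86. Exceptions were Ndufaf2, Ndufaf5, Ndufa7, Cox7c and Cox6b2. For 49 of the 86 the interval lay within 0.5 log2 units either way, and for all 86 it included 0.

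The differences leaned to lower values in the Cre-positive mice. The mean was lower for 65 of the 86 genes, where 61.5% of all genes tested had a lower mean, and higher for 21, against 38.5% of all genes. The median difference was -0.09, and -0.05 over all genes tested. Among the 5611 genes above the 80th percentile of intensity, where 80 of the 86 lay, 55.4% had a lower mean (median -0.03). The lean was larger in 1 of the 2 mice. Against the Cre-negative mean, 70 of the 86 genes lay lower in Cre-positive array 1 (median -0.12) and 46 in array 2 (median -0.01), against medians of -0.07 and -0.04 over all genes tested. Cre-positive array 1 had the lowest of the 4 values for 56 genes and array 2 for 13. Over all 12659 genes tested, array 1 was lowest for 5837 and array 2 for 2772. Above the 80th percentile these counts were 2351 and 1122 of 5611. The 2 Cre-positive arrays differed from each other by a median of 0.18 per gene, more than the groups did, while the Cre-negative pair differed by 0.08. Over all genes tested the Cre-positive pair differed by 0.22, the Cre-negative pair by 0.12 and the groups by 0.16. Above the 80th percentile these medians were 0.26, 0.13 and 0.17. With Cre-positive array 1 left out, 46 of the 86 means were lower, against 59.5% of all genes. Among those 5611 genes, 3106 lay lower than the Cre-negative mean in array 1 (median -0.05) and 2938 in array 2 (median -0.01). Both Cre-positive values lay below both Cre-negative values for 21 genes and above them for 8, where 34.7% of all genes tested lay apart on the lower and 13.5% on the higher side. Of the 5611 genes above the 80th percentile of intensity, 1288 lay apart on the lower and 998 on the higher side.

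**Figure D1:**
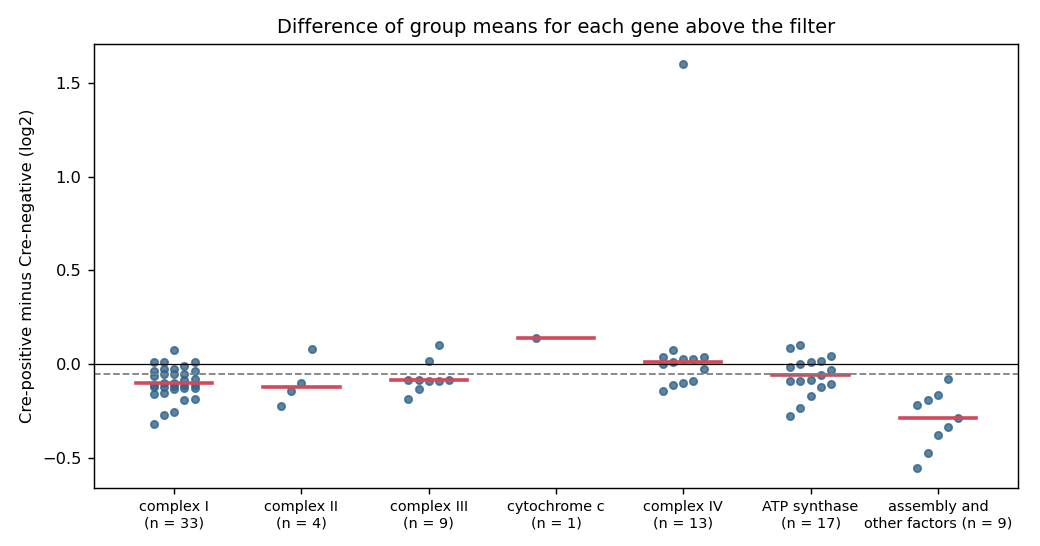
Each point is a gene above the filter, placed by the complex it belongs to; the vertical axis is the difference of group means (Cre-positive minus Cre-negative, log2). Red bars are medians of each complex and the dashed line is the median of all 12659 genes tested (-0.05). Most points lie within 0.5 of 0, the assembly and other factors all lie below 0, and the high point in complex IV is Cox7c.

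**Figure D2:**
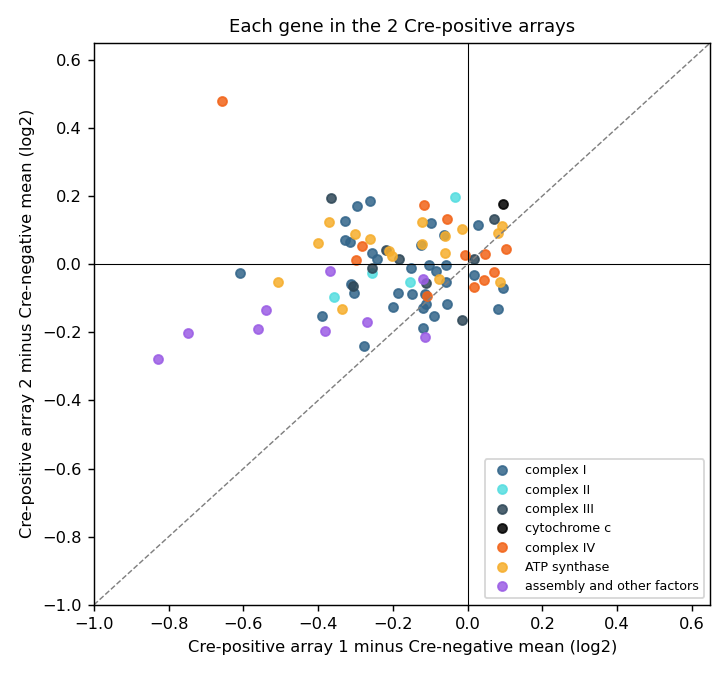
Each point is a gene above the filter (Cox7c is left out for scale), with its value in Cre-positive array 1 (horizontal) and array 2 (vertical), each less the Cre-negative mean, in log2 units; colours mark the complexes and the dashed line marks equal values. The points spread to the left of 0 on the horizontal axis more than they spread below 0 on the vertical axis, with 70 of 86 genes lower in array 1 and 46 in array 2.

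Complex I, the largest of the complexes, leaned lower in most of its subunits. Of 33 subunits above the filter, 29 had a lower and 4 a higher mean, and the median was -0.10. Cre-positive array 1 alone gave -0.13 and array 2 gave -0.03. All 6 core subunits that carry electrons, Ndufs1, Ndufs3, Ndufs7, Ndufs8, Ndufv1 and Ndufv2, had lower means, by 0.03 to 0.19, and none passed the test. Groups lay apart on the lower side for 8 of the 33 and on the higher side for Ndufa12 alone, against 34.7% and 13.5% of all genes tested. Above the 80th percentile of intensity, where 32 of the 33 lay, they did so for 1288 and 998 of 5611 genes.

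Ndufb10, an accessory subunit of the membrane arm, had the smallest unadjusted p of the complex (0.083). It measured log2 13.32 and 13.13 in the Cre-negative and 12.95 and 12.98 in the Cre-positive arrays. The groups did not overlap, and the difference was -0.26 (SE 0.11, 95% interval -0.57 to 0.06, limma adjusted p = 0.50). Ndufs4, an accessory subunit needed for a stable complex I, measured 11.37 in both Cre-negative arrays and 10.98 and 11.21 in the Cre-positive arrays. Its difference was -0.27 (SE 0.12, limma adjusted p = 0.516), and of its 3 other probe sets 2 were lower too, 1 of them by 0.57, while a dim probe set differed by 0.10. Ndufa7 had the largest difference of the complex, -0.32, which rested on Cre-positive array 1: its values were 12.63 and 12.81 in the Cre-negative arrays, 12.11 in Cre-positive array 1 and 12.69 in array 2. All 5 of its probe sets gave -0.25 to -0.33.

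Ndufa13, the subunit described as a STAT3 partner, measured 12.83 and 12.78 in the Cre-negative and 12.72 and 12.78 in the Cre-positive arrays. The groups overlapped and differed by -0.05 (SE 0.09, 95% interval -0.30 to 0.20). On the higher side, Ndufa12 measured 13.17 and 13.12 against 13.18 and 13.26, a difference of 0.07 (SE 0.09), and Ndufb7 differed by 0.01. In the authors' deposited table, whose p-values are not adjusted, 2 of the 86 genes had a p under 0.05, against 10.8% of all genes tested. Both were complex I subunits with very even replicates: the authors' deposited table gives an absolute fold of 1.09 and a p of 0.0120 for Ndufb8, and 1.07 and 0.0350 for Ndufa9.

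Complex II, succinate dehydrogenase, is also an enzyme of the tricarboxylic acid cycle, and it had lower means in 3 of its 4 genes, with a median of -0.12 (-0.21 in Cre-positive array 1 and -0.04 in array 2). Sdhd, a membrane anchor, measured log2 12.42 and 12.51 in the Cre-negative and 12.11 and 12.37 in the Cre-positive arrays. Groups did not overlap, and the difference was -0.23 (SE 0.13, limma adjusted p = 0.553). Sdhb, which holds the iron-sulphur clusters, measured 13.21 and 13.22 against 12.96 and 13.19 (-0.14, SE 0.12). Sdhc, the other anchor, measured 12.12 and 12.06 against 11.93 and 12.04 (-0.10, SE 0.09). In each of these 3 genes Cre-positive array 1 was the lowest of the 4. Sdha, the flavoprotein that oxidises succinate, measured 12.13 and 12.48 against 12.27 and 12.50, with groups that overlapped and a difference of 0.08 (SE 0.17). Its other bright probe set measured 11.74 and 11.89 against 11.98 and 12.05, without overlap (0.20).

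Complex III, the cytochrome bc1 complex, had lower means in 7 of 9 genes, with a median of -0.09 (-0.18 in Cre-positive array 1 and 0.01 in array 2). Uqcrh, the hinge protein, measured 14.48 and 14.55 in the Cre-negative and 14.21 and 14.45 in the Cre-positive arrays, a difference of -0.18 (SE 0.13, limma adjusted p = 0.590). Uqcr11 differed by -0.13 (SE 0.13), with groups that overlapped. Cyc1, cytochrome c1, measured 13.42 on both Cre-negative arrays and 13.31 and 13.37 on the Cre-positive arrays (-0.08, SE 0.08). Uqcrb and Uqcrc1 had higher means. Uqcrb measured 14.47 and 14.51 against 14.56 and 14.62, a difference of 0.10 (SE 0.09) that its other probe set did not share in direction. Uqcrc1, a core subunit, differed by 0.01 (SE 0.08).

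Cycs, cytochrome c, carries electrons between complexes III and IV and triggers caspases when released into the cytosol. Its brightest probe set measured log2 14.21 and 14.26 in the Cre-negative and 14.33 and 14.41 in the Cre-positive arrays, so that the groups did not overlap. The difference was 0.14 (SE 0.09, 95% interval -0.14 to 0.41, limma adjusted p = 0.588). Its other bright probe sets went the other way by -0.02 and -0.03. Averaging all its probe sets, among them a dim one below the filter (-0.16), gave -0.02.

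Complex IV, cytochrome c oxidase, differed least in its median. Of 13 genes above the filter, 7 had a higher and 6 a lower mean, with a median of 0.01 (-0.01 in Cre-positive array 1 and 0.03 in array 2). Subunits used in most tissues differed little: Cox4i1 by -0.03, Cox6a1 by 0.02, Cox7a2 by 0.01, Cox6c by 0.03 and Cox5b by 0.04. Cox5a measured 14.66 and 14.58 in the Cre-negative and 14.72 and 14.66 in the Cre-positive arrays (0.07, SE 0.10). Cox8a measured 12.46 and 12.56 against 12.21 and 12.52 (-0.14, SE 0.15), with Cre-positive array 1 the lowest. Ndufa4, named for complex I but described as a subunit of complex IV, differed by -0.11 (SE 0.15).

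Several subunits of complex IV have copies that are used in particular tissues. Cox4i2, known from lung, Cox6a2, known from heart and skeletal muscle, and Cox7b2 and Cox8c, known from testis, lay at the bottom of the scale on all 4 arrays (log2 1.71 to 2.38). Cox8b, a copy of muscle and brown fat, lay there too (2.78 to 2.93), so no sizes are given for these 5. Cox8b passed the filter only through its Cre-negative arrays, and it counts among the 86, their lower means and the groups apart. Ndufa4l2, a copy of Ndufa4 that hypoxia induces, lay at 1.56 to 1.59. Cox7a1, a copy used by heart and muscle, was measured well above the filter, at 10.86 and 10.26 in the Cre-negative and 10.50 and 10.69 in the Cre-positive arrays. Its groups overlapped (0.04, SE 0.25), and the Cre-negative pair spanned 0.60, while of the muscle markers Des, Myh11, Acta2, Tagln, Actg2 and Cnn1 the highest sum on any array was log2 5.37. Cox6b2, a testis copy, measured 5.2 and 5.22 against 4.56 and 5.69, so that the Cre-positive arrays lay on either side of the Cre-negative ones.

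Cox7c had the largest difference of the 86 genes, 1.6 (SE 0.77, 95% interval -0.63 to 3.83, limma adjusted p = 0.527). It measured log2 5.83 and 4.02 in the Cre-negative and 6.98 and 6.07 in the Cre-positive arrays. The groups did not overlap, but their means differed by less than the Cre-negative pair did (1.81), and leaving out Cre-negative array 2 gave 0.70, leaving out the other one 2.50. Its other probe set measured 5.47 and 4.68 against 5.38 and 5.59 (0.41). Both are dim probe sets, and whether they measure the main Cox7c messenger was not tested.

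ATP synthase consists of the catalytic F1 part, with a central shaft that turns as protons pass, and of the membrane part with its stalk. Of 17 genes 11 had a lower and 6 a higher mean, with a median of -0.06. The 2 Cre-positive arrays lay on opposite sides of the Cre-negative mean, with medians of -0.12 in array 1 and 0.06 in array 2. The F1 subunits Atp5a1 (0.00), Atp5b (0.04) and Atp5d (-0.01), the last of them a part of the shaft, differed by less than 0.05 between groups. Atp5c1, the rotating central shaft, measured 14.08 and 14.12 in the Cre-negative and 13.77 and 13.97 in the Cre-positive arrays. Its groups did not overlap (-0.23, SE 0.12, limma adjusted p = 0.532). Its other, dim probe set went the other way, from 4.27 and 3.94 to 5.41 and 5.35, a difference of 1.28 that did not pass when it was used in place of the brightest (limma adjusted p = 0.279). Atp5e, another part of the shaft, measured 12.94 and 13.13 against 12.53 and 12.99 (-0.28, SE 0.20).

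The c subunits of the proton-driven ring are encoded by 3 genes that yield the same mature protein. Atp5g3 measured 14.40 and 14.47 in the Cre-negative and 14.53 and 14.54 in the Cre-positive arrays (0.10, SE 0.09). Atp5g1 (-0.09, SE 0.12) and Atp5g2 (-0.17, SE 0.20) had lower means, with groups that overlapped in both. Atp5k measured 12.99 and 12.77 against 12.96 and 12.97 (0.09, SE 0.12).

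**Figure D3:**
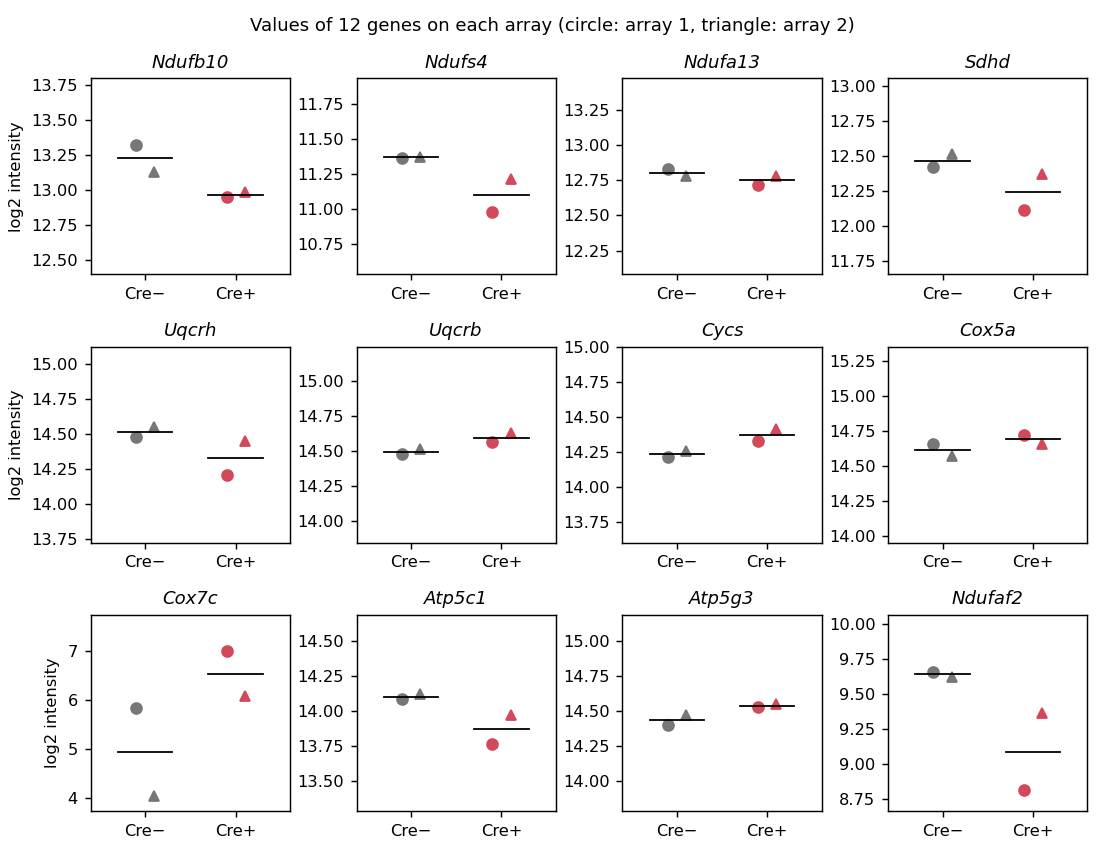
The log2 intensity of 12 genes on each array, Cre-negative in grey and Cre-positive in red; circles are array 1, triangles array 2 and black bars the group means. Every panel spans 1.4 log2 units except Cox7c, which spans 4. In Ndufs4, Sdhd, Uqcrh, Atp5c1 and Ndufaf2 the lowest value is that of Cre-positive array 1.

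The group of assembly and other factors had the lowest median. Above the filter it held the Ndufaf genes, which help build a complex without staying in it, and Cox7a2l. All 9 of these genes had lower means, with a median of -0.29. All lay below the Cre-negative mean in both Cre-positive arrays (medians of -0.38 and -0.19). Groups lay apart in 5 of the 9, all on the lower side, against 34.7% of all genes tested. Ndufaf2, a chaperone of complex I, measured log2 9.66 and 9.62 in the Cre-negative arrays, 8.81 in Cre-positive array 1 and 9.36 in array 2. Its difference was -0.55 (SE 0.23, 95% interval -1.21 to 0.11, limma adjusted p = 0.499). Cox7a2l, a factor that joins complexes III and IV into supercomplexes, measured 12.15 and 12.13 against 11.58 and 11.95. Its difference was -0.38 (SE 0.16, limma adjusted p = 0.506), and its 2 other probe sets gave -0.33 and -0.44. Ndufaf5 (-0.48), Ndufaf7 (-0.34) and Ndufaf3 (-0.29) also had groups that did not overlap, whereas those of Ndufaf1, Ndufaf4, Ndufaf6 and Ndufaf8 overlapped. These genes were dimmer than most subunits, and their SE was larger (median 0.18, against 0.12 over the 86).

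Assembly factors outside the chosen symbols leaned the same way. Of 40 such genes tested, 35 had a lower mean, with a median of -0.21 (-0.39 in Cre-positive array 1 and -0.08 in array 2), and 0 passed the test. Under an unadjusted p of 0.05, 3 of the 40 were lower, against 8.51% of all genes tested, and 0 higher. Among the 5611 genes above the 80th percentile of intensity, where 27 of the 40 lay, 125 were lower at that p. The 3 were Acad9 and Foxred1, factors of complex I, and Uqcc1, a factor of complex III. Acad9 measured 9.0 and 9.06 in the Cre-negative and 8.59 and 8.70 in the Cre-positive arrays (-0.38, SE 0.12, limma adjusted p = 0.411). Foxred1 differed by -0.39 and Uqcc1 by -0.49 (limma adjusted p = 0.450 for each). The higher gene of smallest unadjusted p was Coa5 (0.12, SE 0.10).

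The proteins of the mitochondrial ribosome make the subunits that mitochondrial DNA encodes. All 76 of their genes tested had a lower mean in Cre-positive mice (median -0.26), where 61.5% of all genes tested had a lower mean (median -0.05). Cre-positive array 1 gave a median of -0.38, with 75 of the 76 below the Cre-negative mean, and array 2 a median of -0.13, with 63 below it. Groups lay apart on the lower side for 51 of the 76 and on the higher side for 0, against 34.7% and 13.5% of all genes. None passed the test, and 5 of the 76 had an unadjusted p under 0.05, all lower, against 8.51% of all genes tested. Of the 5611 genes above the 80th percentile of intensity, where 74 of the 76 lay, 125 were lower at that p. Mrpl17 and Mrpl41 were among the 5. Mrpl17 measured log2 11.02 and 10.96 in the Cre-negative and 10.61 and 10.66 in the Cre-positive arrays (-0.36, SE 0.09, limma adjusted p = 0.332). Mrpl41 measured 10.92 and 10.78 against 10.49 and 10.48 (-0.37, SE 0.10, limma adjusted p = 0.371). Genes of such a list share arrays and RNA, so their count is a description.

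Of the 13 subunits encoded by mitochondrial DNA, 1 had a probe set named for it alone. ND5, a proton-pumping subunit of complex I, measured 13.45 and 14.08 in the Cre-negative and 13.98 and 13.92 in the Cre-positive arrays (0.18, SE 0.25), and the Cre-negative pair spanned 0.62.

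Among regulators of mitochondrial biogenesis, 12 of 16 had a lower mean and 4 a higher one, with a median of -0.11 (-0.19 in Cre-positive array 1 and -0.07 in array 2). Ppargc1b, a coactivator of mitochondrial genes, stood out on the higher side. It measured log2 9.64 and 9.63 in the Cre-negative and 10.45 and 10.31 in the Cre-positive arrays, the same direction in both mice (0.75, SE 0.10, 95% interval 0.45 to 1.05, unadjusted p = 0.0028), and it did not pass over all genes (limma adjusted p = 0.244). Its relative Ppargc1a differed by 0.08 (SE 0.23) and overlapped. Tfb2m, a transcription factor of mitochondrial DNA, measured 9.55 and 9.67 against 8.87 and 9.42 (-0.46, SE 0.23), and Tfam, which packages that DNA, differed by -0.28 (SE 0.15). Nrf1, which encodes a main activator of the chain's genes, differed by -0.07 (SE 0.21).

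Other mitochondrial lists also gave 0 genes past the test. Enzymes of the tricarboxylic acid cycle and pyruvate dehydrogenase had lower means in 12 of 16 (median -0.08), with Fh1, fumarase, at -0.29 (SE 0.12) and Ogdh at 0.25 (SE 0.10). Cre-positive array 1 alone gave a median of -0.18 and array 2 one of 0.03, where 3 of the 16 lay below the Cre-negative mean. Genes of coenzyme Q synthesis had lower means in 9 of 12 (median -0.20, with -0.20 and -0.15 in the Cre-positive arrays), with Pdss2 at -0.26 and Coq3 at 0.14. Genes that shape the inner membrane had lower means in 12 of 15 (median -0.22), with Chchd6 at -0.47 (SE 0.17) and Higd1a at 0.21. Their median was -0.38 in Cre-positive array 1 but 0.01 in array 2, where 7 of the 15 lay below the Cre-negative mean, so the lean was absent without array 1. Carriers and porins had higher means in 5 of 7 (median 0.02, with -0.03 and 0.08 in the Cre-positive arrays), among them Vdac2 (0.14), and the lower one of smallest p, Slc25a31, lay at the bottom of the scale. Enzymes that feed electrons in from fatty acids and other fuels had lower means in 5 of 8 (median -0.01, or -0.02 and 0.00 by Cre-positive array), with Dhodh at -0.40 (SE 0.34) and Chdh at 0.12. In all of these together 0 genes had an unadjusted p under 0.05.

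**Figure D4:**
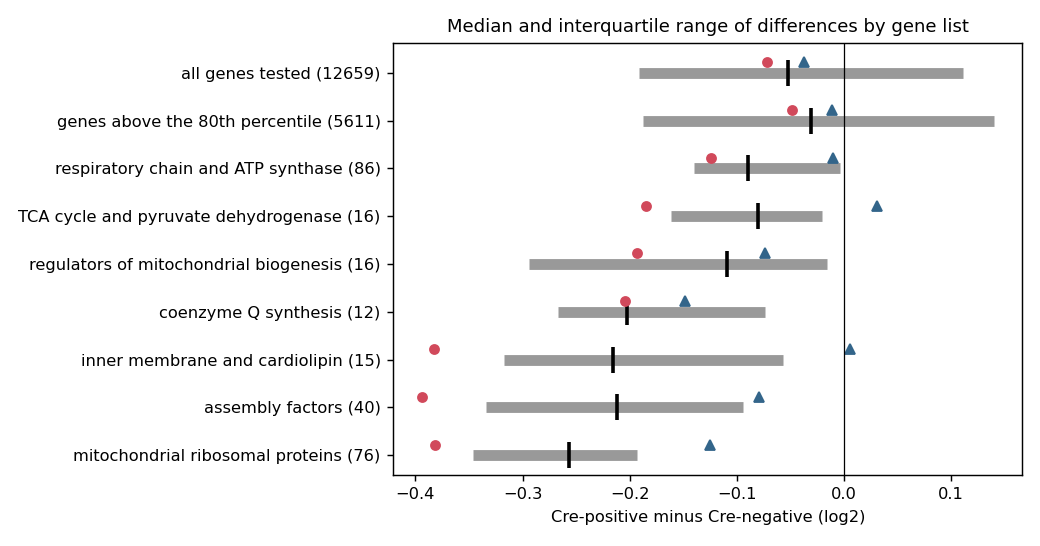
For all genes tested, the genes above the 80th percentile of intensity and 7 gene lists, with the number of genes tested in brackets, the black tick is the median difference (Cre-positive minus Cre-negative, log2) and the grey bar the middle 50% of genes. Red circles are the list's median in Cre-positive array 1 and blue triangles in array 2, each against the Cre-negative mean. Of the lists drawn, mitochondrial ribosomal protein genes have the lowest median (-0.26), and in every row the circle lies to the left of the triangle.

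Motifs known from promoters of respiratory chain genes were each found in a minority of the promoters. Nuclear respiratory factor 1, encoded by Nrf1, binds a palindrome, of which the letters searched, GCATGCGC, are a part. In the RefSeq promoter windows (build GRCm38.p6, 250 bases before to 50 after each start), read on both strands, 12 of the 75 genes with a window held this motif (16%), against 5.68% of 10194 genes tested with a window. The stretches below, written 5′ to 3′ on the gene's strand, come from genes of different complexes and show the motif in capitals. In Atp5k, Cox6a1 and Ndufaf4 the capitals also cover an overlapping reverse match. The stretch of Cycs is at chr6:50566597-50566654 (minus strand), that of Atp5k at chr5:108434417-108434474 (minus strand), Cox6a1 at chr5:115349088-115349145 (minus strand), Sdhb at chr4:140961192-140961249 (plus strand) and Ndufaf4 at chr4:24897945-24898002 (plus strand).
Cycs: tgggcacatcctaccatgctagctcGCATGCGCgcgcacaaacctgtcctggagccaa
Atp5k: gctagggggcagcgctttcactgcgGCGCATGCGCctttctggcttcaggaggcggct
Cox6a1: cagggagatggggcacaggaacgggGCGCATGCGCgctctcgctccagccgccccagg
Sdhb: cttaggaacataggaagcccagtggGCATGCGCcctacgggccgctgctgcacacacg
Ndufaf4: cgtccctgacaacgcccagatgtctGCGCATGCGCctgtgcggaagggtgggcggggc

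The genes with these stretches did not share a direction: Cycs (0.14), Atp5k (0.09) and Cox6a1 (0.02) had higher means, Sdhb (-0.14) and Ndufaf4 (-0.16) lower ones. Of the remaining genes with the motif, Uqcrc1 (0.01) had a higher mean. Atp5g2 (-0.17), Atp5l (-0.12), Ndufa6 (-0.11), Ndufa8 (-0.08), Ndufaf5 (-0.48) and Uqcr11 (-0.13) had lower ones. The motif CCGGAAG, bound by ETS factors such as GABP, was in the windows of 19 of the 75 genes (25.3%), against 18.9% of genes tested. AAGATGGCG, a YY1 motif, was in 7 (9.33%, against 3.40%), and AAGGTCA, bound by oestrogen-related receptors, in 8 (10.7%, against 4.12%). TTCCNGGAA, a STAT motif, was in the window of 1, Ndufa8 (1.33%, against 1.6% of genes tested). Ndufa8 differed by -0.08 (SE 0.11). A match describes letters in a window and not a site in use.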

How the data were processed

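The authors deposited intensity values made with GC-RMA, as the submitters' processing notes name it, a method that corrects background by probe sequence, normalizes between arrays and gives 1 value per probe set. Its version is not stated. A second deposited table holds the same intensities rounded, log2 values after subtraction of a baseline, an absolute fold (a ratio) and a p-value, per the file headers, which do not name its test. For these genes the rounded intensities differed from the first table by at most 0.498. The labels do not name the array type.

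The log2 of the deposited intensity was analysed for the brightest probe set of each gene, among the 34945 probe sets with 1 gene, named through GEO's platform annotation. Genes above the 40th percentile (12659) were fitted with lmFit and eBayes (trend on intensity, no replicate block) of limma 3.58.1, run in R 4.3.3, in two-sided tests, with Benjamini-Hochberg adjustment over all of them. Differences are Cre-positive minus Cre-negative, and SE and intervals come from that fit (2 residual and 1.58 prior degrees of freedom). All adjusted p-values of single genes are from it. The fit was tested on simulated data. The labels call the arrays biological replicates. The number of arrays limits precision.

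Genes named are, in each complex, the 2 of smallest unadjusted p in each direction, all of complex II, Cyc1, Cycs, Ndufa13 and the isoforms, and from each further list the gene of smallest unadjusted p in each direction. Others were chosen after their values were seen. Members and lists were chosen with earlier results of these data known. Alternatives were array centring, quantile normalization, other filters, other probe sets, an added 16 before log2, no trend, the replicate block and leaving out each array. mt-Nd5 was matched by hand to the annotation's symbol ND5. Of the 92 genes, 75 had a RefSeq promoter window.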

Additional observations from a re-analysis of the deposited data

How the results depend on the processing

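In none of the alternatives did limma call any of the respiratory chain and ATP synthase genes, nor any gene of all tested. The count at an unadjusted p under 0.05, 0 higher and 0 lower, became 4 lower without the filter on dim genes (Cox4i2, Cox7b2, Ndufa4l2 and Ndufb4, all at the bottom of the scale) and 2 lower by the authors' deposited p-values. It became 1 higher with the mean of all probe sets, with specific probe sets (Atp5c1 in both) and with the replicate block (Cox7c). Without the filter on dim genes, 29.2% of all genes tested were lower at that p. Leaving out single arrays gave 0 to 1 higher and 0 to 16 lower. The 16 came without Cre-positive array 2 and the 1 higher without Cre-positive array 1 (Cox6b2) or Cre-negative array 1 (Cox7c). Each of these fits left 1 array in a group. Without Cre-positive array 2 a similar share of all genes tested was lower at that p, so that count does not set the respiratory chain genes apart. The median difference of -0.09 ranged from -0.12 without Cre-positive array 2 to -0.011 without Cre-positive array 1. The number of lower means was 46 to 70 of 86 without single arrays. For mitochondrial ribosomal protein genes it was 63 to 76 of 76, an alternative chosen after seeing the data. Stat3 ranged from -2.31 to -1.20 without single arrays and was -0.53 with the mean of all probe sets. Directions turned, without a call, with the mean of all probe sets for Atp5c1 (0.52, and 1.28 with specific probe sets), Cycs (-0.019) and Ndufb7 (-0.052). For Atp5c1 and Cycs that mean includes a dim probe set. Without single arrays, Ndufb7 ranged from -0.069 (without Cre-positive array 1) to 0.095, Cox8a from -0.298 to 0.012 and Cox6b2 from -0.657 to 0.48 (both highest without Cre-positive array 1), Sdha from -0.089 (without Cre-negative array 1) to 0.253, Cox7a1 from -0.26 (without Cre-negative array 2) to 0.339 and Atp5k from -0.025 (without Cre-negative array 2) to 0.197. Sdha (-0.03) and Cox7a1 (-0.05) were also lower without Cre-positive array 2. The cause was not tested. The replicate block left the differences as they were and the labels do not say that numbers mark shared litters or days; deviations of same-numbered arrays correlated at 0.423 over genes, with 2 pairs. Dim genes at the bottom of the scale carry no size.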
